A study of Mus musculus with 7 samples.

Results

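The melanocyte lineage was followed through 10 genes, chosen by name: Dct, Tyr, Tyrp1, Pmel, Mlana, Mitf, Kit, Kitl, Sox10 and Mc1r. All 10 were among the 55423 features of the count table, and all 10 passed the filter on low counts (at least 5 reads in at least 1 tumour), which left 24433 genes for testing. Bulk RNA, depleted of ribosomal RNA, was sequenced from cutaneous squamous cell carcinomas (cSCC) of 2 mouse genotypes. In Ivl:BRAFV600E mice, topical tamoxifen activates a Cre recombinase that is expressed under the involucrin (Ivl) promoter, so that the BRAF oncogene is switched on in the IVL+ cells of the epidermis. In Ivl:BRAFV600E-SOX2LSL mice, the same recombination also releases a Rosa26 allele that expresses SOX2 and eGFP. The comparison asks what SOX2 adds to tumours that all carry BRAFV600E, and neither group is normal skin. Mice were kept on a C57BL/6J background and were induced at 7 to 10 weeks of age according to the labels, and tumours were taken at clinical endpoint, 1 tumour per mouse. Of each genotype, 3 tumours were used. The Ivl:BRAFV600E tumours 1 and 2 came from females and tumour 3 from a male, while the Ivl:BRAFV600E-SOX2LSL tumours 1 and 2 came from males and tumour 3 from a female. The numbers follow the order of the columns within a genotype and pair no tumours. In the Ivl:BRAFV600E group, the mice of tumours 1 and 2 also carried a Rosa26 tdRFP reporter allele. Every Ivl:BRAFV600E-SOX2LSL tumour was collected earlier after induction than every Ivl:BRAFV600E tumour, so that time since induction cannot be told apart from genotype, and the labels do not give the body site of each tumour.

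Melanocytes are pigment cells that arise from the neural crest and settle in the epidermis and the hair follicle, where they make melanin in organelles called melanosomes and pass these to keratinocytes. Commitment to the lineage depends on the transcription factors SOX10 and MITF, survival and migration depend on the receptor KIT and on its ligand, which keratinocytes and fibroblasts supply, and MC1R sets the type of pigment. Several of the 10 genes are also used by other cells of a skin tumour: KIT and MITF by mast cells, MITF by macrophages and SOX10 by Schwann cells and glands. In bulk RNA, fewer cells of a type and less RNA per cell cannot be told apart.

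Each library held 23565432 to 31152826 counts on genes, and 3 counts, taken as the smallest level that can be told from 0, corresponded to 0.0839 to 0.143 CPM (counts per 1 M, after TMM scaling of the library sizes). This floor and the counting intervals below cover counting error only, because reads without molecular identifiers are not independent molecules. The p-values of the fits set the difference between the genotypes against the spread between tumours, which each fit estimates with information shared over genes. Sox2 was at 0.238 to 0.716 CPM in Ivl:BRAFV600E tumours and at 155 to 182 CPM in Ivl:BRAFV600E-SOX2LSL tumours (log2 fold change 8.35, edgeR adjusted p = 8.07e-04), and EGFP had 0 counts in the first group and 110 to 139 CPM in the second, so that the 6 columns used matched their genotype. The summed level of the 6 keratinocyte markers was 79289 to 117174 CPM in Ivl:BRAFV600E tumours and 10486 to 41206 CPM in Ivl:BRAFV600E-SOX2LSL tumours. Of these markers edgeR called none (3 at an unadjusted p below 0.05, where 25.7% of all genes passed). The smallest edgeR adjusted p-values were 0.0648 for Lor and 0.0935 for Krt10, which encode proteins of the differentiating epidermis. DESeq2 called 3 markers, and limma-voom and edgeR with no filter called 2, Lor and Krt10 among them each time (adjusted p 1.55e-04 and 4.25e-04 with DESeq2), all with estimates below 0. The melanocyte genes made up only a small part of each library, the 5 pigment cell genes Dct, Tyr, Tyrp1, Pmel and Mlana adding to 1.16 to 5.49 CPM.

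The promoters of Tyr, Tyrp1, Dct and Mc1r share a short sequence, and it is shown here because it is the best known link between MITF and pigment genes. The letters TCATGTG, the core of the M-box to which MITF binds, were searched on both strands from 250 bases before to 50 bases after each RefSeq start (GRCm38.p6). Of the 10 genes, 7 matched the promoter table (Pmel, Mlana and Sox10 did not). The letters were found in the promoters of 4 of these 7 genes, Tyr, Tyrp1, Dct and Mc1r, and in 3.77% of all 32851 promoters. In Tyr and Tyrp1 they lie inside the longer form AGTCATGTGCT, which 0.0213% of all promoters hold. The stretches are written from 5′ to 3′ on the strand of the gene, with the match in capitals, and Dct holds a match on each strand. For Tyrp1 only 29 bases are given because this stretch lies in an exon of the GENCODE annotation.
Tyr, chr7:87493513-87493584, minus strand: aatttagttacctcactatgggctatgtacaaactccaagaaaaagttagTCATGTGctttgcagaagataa
Tyrp1, chr4:80834155-80834183, plus strand: tggggagggagTCATGTGctgcctagtag
Dct, chr14:118052341-118052496, minus strand: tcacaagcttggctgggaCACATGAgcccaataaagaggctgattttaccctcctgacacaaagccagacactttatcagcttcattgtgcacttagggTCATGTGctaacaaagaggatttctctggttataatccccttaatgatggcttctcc
Mc1r, chr8:123406980-123407081, plus strand: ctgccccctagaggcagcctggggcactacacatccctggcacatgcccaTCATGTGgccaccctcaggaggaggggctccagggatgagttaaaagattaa
The match begins at -22 from the start in Tyr, at -47 in Tyrp1, at -52 in Mc1r and at -232 and -151 in Dct. The searched windows of Kit, Kitl and Mitf did not contain these letters. A match is a description of the letters, and binding was not measured.

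None of the 10 genes passed the test between the genotypes. With edgeR's quasi-likelihood test and Benjamini-Hochberg adjustment over all 24433 genes, 0 of 10 had an adjusted p below 0.05, where 3.90% of all genes did, and the adjusted p-values of the 10 ran from 0.168 to 0.954. At an unadjusted p below 0.05 there was 1 gene, Pmel, where 25.7% of all genes passed. DESeq2 and limma-voom also called 0 of 10, where they called 3653 and 2142 of all 24433 genes. DESeq2 gave no adjusted p for Tyr, Mlana and Mc1r, so that it could not call these. The estimate lay above 0 in 9 of 10 genes, with a median log2 fold change of 0.86 beside 0.04 over all genes, of which 52.8% lay above 0. Tyr, Mlana and Mc1r had the largest estimates (2.77, 1.67 and 1.47). They reached 5 reads only in Ivl:BRAFV600E-SOX2LSL tumours, so that the filter favoured a positive sign, and they count in both the 9 of 10 and the median. The intervals were wide, and a missed threshold does not show that the genotypes were alike.

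**Figure D1:**
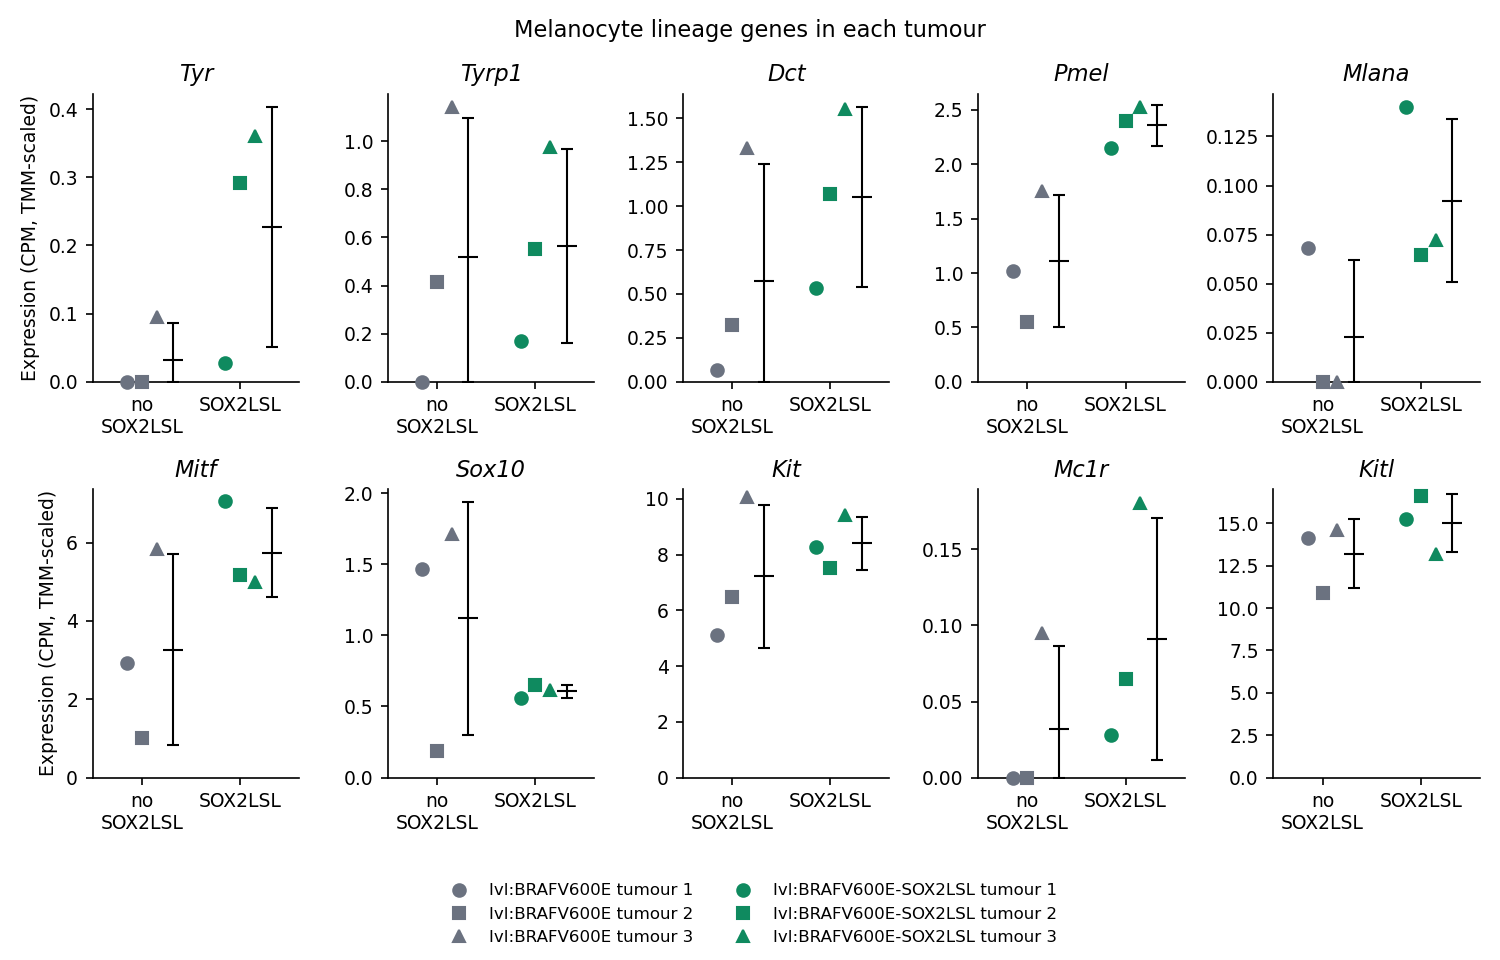
Expression (CPM after TMM scaling) of the 10 genes in each of the 6 tumours, grey for Ivl:BRAFV600E and green for Ivl:BRAFV600E-SOX2LSL, with the mean and SD of 3 tumours beside the points (lower bars stop at 0). Only in Pmel do the 3 green points lie above all 3 grey points, and the grey triangle, Ivl:BRAFV600E tumour 3, is the highest of its group in 9 of 10 genes.

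The 3 enzymes that make melanin were at or near the limit of detection in part of the tumours. Tyrosinase (Tyr, ENSMUSG00000004651, chromosome 7 of GRCm38, 87424771 to 87493512, minus strand), which catalyses the first step of melanin synthesis, had 0, 0 and 2 counts in Ivl:BRAFV600E tumours 1 to 3 and 1, 9 and 10 counts in Ivl:BRAFV600E-SOX2LSL tumours 1 to 3. Only SOX2LSL tumours 2 and 3 exceeded 3 counts, and the groups overlapped, because SOX2LSL tumour 1 lay below Ivl:BRAFV600E tumour 3. Over each group the counts came to 2 and 20, a ratio of 7.64 after scaling by library size, with an exact 95% counting interval of 1.86 to 67.4. The spread between tumours is not in that interval, and edgeR gave an adjusted p of 0.259.

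Tyrosinase-related protein 1 (Tyrp1, ENSMUSG00000005994, chromosome 4, 80834123 to 80851719, plus strand), which acts in the making of black eumelanin, was at 0, 0.416 and 1.14 CPM in the Ivl:BRAFV600E tumours and at 0.168, 0.551 and 0.975 CPM in the Ivl:BRAFV600E-SOX2LSL tumours. The ranges of the groups were nearly the same, and the highest single value was that of an Ivl:BRAFV600E tumour. The estimated log2 fold change was 0.14 (95% interval -2.58 to 2.87, edgeR adjusted p = 0.954), and 2.33 with limma-voom (adjusted p = 0.299). Its sign changed when Ivl:BRAFV600E tumour 1 was left out (-0.47) and when Ivl:BRAFV600E-SOX2LSL tumour 3 was left out (-0.50).

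Dopachrome tautomerase (Dct, ENSMUSG00000022129, chromosome 14, 118012790 to 118052244, minus strand), which converts dopachrome and is expressed early in the lineage, was at 0.0682, 0.323 and 1.33 CPM in the Ivl:BRAFV600E tumours and at 0.532, 1.07 and 1.55 CPM in the Ivl:BRAFV600E-SOX2LSL tumours. Ivl:BRAFV600E tumour 3 lay above 2 of the 3 SOX2LSL tumours. The estimate was a log2 fold change of 0.89 (95% interval -1.22 to 3.01, edgeR adjusted p = 0.566), and ranged from 0.34 to 2.45 when single tumours were left out. With limma-voom it was 2.17 (adjusted p = 0.148). The lowest value was that without Ivl:BRAFV600E tumour 1 and the highest that without Ivl:BRAFV600E tumour 3. In all 3 enzymes, Ivl:BRAFV600E tumour 3 had the highest level of its group, and SOX2LSL tumour 1 the lowest of its own.

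Among the proteins of the melanosome itself, Pmel was the 1 gene of the 10 whose groups did not overlap. Pmel (ENSMUSG00000025359, chromosome 10, 128704195 to 128720238, plus strand) encodes the amyloid-forming protein on whose fibrils melanin is laid down. It was at 1.02, 0.554 and 1.76 CPM in the Ivl:BRAFV600E tumours (30, 12 and 37 counts) and at 2.15, 2.40 and 2.53 CPM in the Ivl:BRAFV600E-SOX2LSL tumours (77, 74 and 70 counts). The lowest SOX2LSL tumour thus exceeded the highest Ivl:BRAFV600E tumour, and the SOX2LSL tumours varied less among themselves. The means were 1.11 ± 0.607 and 2.36 ± 0.190 CPM (SD, n = 3 each), a fold of 2.12 with a 95% interval of 1.06 to 4.25. The edgeR p was 0.0373 before and 0.168 after adjustment over all genes, and the exact two-sided permutation p was 0.1, the smallest that 3 tumours against 3 allow. The adjusted p was 0.0908 with DESeq2 and 0.0773 with limma-voom, and 0.147 to 0.274 in the other fits to all 6 tumours. The log2 fold change was 0.77 without Ivl:BRAFV600E tumour 2 and 1.56 without Ivl:BRAFV600E tumour 3. Groups that did not overlap were found in 1 of the 10 genes and in 34.2% of all genes (18.2% higher and 16.0% lower with SOX2LSL). When library sizes were scaled by total counts alone, the number was 4 of the 10 genes (Pmel, Mlana, Mitf and Kitl, all higher) against 40.3% of all genes (33.5% of all genes being higher). The exons of Pmel overlap those of Cdk2 and Dgka on the other strand by 139 bases, and whether the strand was used in counting is not stated.

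Mlana (ENSMUSG00000024806, chromosome 19, 29697824 to 29708634, plus strand), which encodes the melanosome protein MART-1, had 2, 0 and 0 counts in the Ivl:BRAFV600E tumours and 5, 2 and 2 in the Ivl:BRAFV600E-SOX2LSL tumours. Only SOX2LSL tumour 1 exceeded 3 counts. The ratio of the summed counts was 3.44 after scaling, with an exact 95% counting interval of 0.711 to 32.7 (edgeR adjusted p = 0.424), and a difference was not detectable at this depth.

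When the 5 pigment cell genes were summed, the Ivl:BRAFV600E tumours had 1.16, 1.29 and 4.32 CPM and the Ivl:BRAFV600E-SOX2LSL tumours 3.02, 4.37 and 5.49 CPM. The groups overlapped through Ivl:BRAFV600E tumour 3, which lay above SOX2LSL tumour 1. The make-up of the sum differed as well. Pmel held 88.2% of the counts of these genes in Ivl:BRAFV600E tumour 1, in which Tyr and Tyrp1 had no counts, and 40.7% in Ivl:BRAFV600E tumour 3. In the SOX2LSL tumours its share was 71.3%, 54.8% and 46.1%.

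The estimates of the lineage's transcription factors had opposite signs. Mitf (ENSMUSG00000035158, chromosome 6, 97807052 to 98021349, plus strand), the master regulator of the pigment genes, was at 2.93, 1.02 and 5.84 CPM in the Ivl:BRAFV600E tumours and at 7.05, 5.18 and 4.98 CPM in the Ivl:BRAFV600E-SOX2LSL tumours. Ivl:BRAFV600E tumour 3 lay within the range of the SOX2LSL tumours, and the other two lay below it. The log2 fold change was 0.82 (95% interval -0.48 to 2.11, edgeR adjusted p = 0.386). It ranged from 0.39 without Ivl:BRAFV600E tumour 2 to 1.53 without Ivl:BRAFV600E tumour 3, where the adjusted p was 0.156 and the p before adjustment 0.0219. The counts of Mitf do not separate its isoforms, of which only some are particular to melanocytes.

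Sox10 (ENSMUSG00000033006, chromosome 15, 79154908 to 79165240, minus strand), which activates Mitf and Dct and is required in neural crest derivatives, was the 1 gene of the 10 with an estimate below 0. It was at 1.47, 0.185 and 1.71 CPM in the Ivl:BRAFV600E tumours and at 0.560, 0.648 and 0.614 CPM in the Ivl:BRAFV600E-SOX2LSL tumours. The 3 SOX2LSL tumours lay close together, within a range that the Ivl:BRAFV600E tumours bracketed on both sides. The log2 fold change was -0.89 (95% interval -2.51 to 0.74, edgeR adjusted p = 0.452), and it ranged from -1.38 to -0.47 when single tumours were left out. In Ivl:BRAFV600E tumour 2, in which Sox10 had 4 counts, the Schwann cell markers Cdh19 and Gfra3 also had 0 counts. The summed level of the 11 Schwann cell markers was 131 to 150 CPM in Ivl:BRAFV600E and 101 to 155 CPM in Ivl:BRAFV600E-SOX2LSL tumours. The edgeR test called 0 of 11, where 3.90% of all genes passed, and 3 had an unadjusted p below 0.05, where 25.7% of all genes did. The smallest edgeR adjusted p-values were 0.0847 for Ncmap and 0.0970 for S100b. DESeq2 called these 2 genes (0.0322 and 0.0463), Ncmap higher and S100b lower, and limma-voom called 0. Most of that sum came from L1cam and Mbp, singled out after their values were seen. The other 9 markers summed to 32.5, 8.87 and 25.2 CPM in the Ivl:BRAFV600E tumours and to 39.8, 33.0 and 32.6 CPM in the Ivl:BRAFV600E-SOX2LSL tumours, groups that did not overlap, though 32.5 and 32.6 CPM are nearly equal. The summed level of 11 markers of eccrine and salivary glands was 533 to 582 and 403 to 737 CPM, with 1 of 11 past the edgeR test, where 3.90% of all genes passed. That gene, the water channel Aqp5, was lower (233 ± 73.3 against 15.4 ± 10.9 CPM, SD, n = 3 each, edgeR adjusted p = 0.0350), a call lost with sex as a covariate (0.0674) and when any tumour other than SOX2LSL tumour 1 was left out (0.0609 to 0.134). The other gland markers mostly had estimates of the opposite sign. Of the 11 estimates 9 lay above 0 (median 1.32 on the log2 scale), where 52.8% of all genes did. The keratin genes Krt8, Krt18 and Krt19 were at 106, 91.2 and 86.8 CPM in SOX2LSL tumour 1 and at 0.0324 to 8.65 CPM in the other SOX2LSL tumours, against 0 to 1.95 CPM in the Ivl:BRAFV600E tumours. Of these only Krt8 had groups that did not overlap (edgeR adjusted p = 0.0832). DESeq2 and edgeR with no filter called Krt8 (0.0137 and 0.0364) and the keratin gene Krt77 (0.00672 and 0.0471) besides Aqp5, both higher with SOX2LSL, while limma-voom called Aqp5 alone. Their part in the level of Sox10 was not tested.

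Of the receptors, Kit (ENSMUSG00000005672, chromosome 5, 75574916 to 75656722, plus strand), a receptor tyrosine kinase, was readily measured, at 5.12, 6.47 and 10.1 CPM in the Ivl:BRAFV600E tumours and at 8.25, 7.51 and 9.43 CPM in the Ivl:BRAFV600E-SOX2LSL tumours. The highest value was again that of Ivl:BRAFV600E tumour 3, and the groups overlapped. This gave a log2 fold change of 0.22 with a 95% interval of -0.43 to 0.87 (edgeR adjusted p = 0.652), so that folds of 0.743 to 1.83 remain within the interval. Mc1r (ENSMUSG00000074037, chromosome 8, 123407107 to 123410744, plus strand), the receptor for melanocyte-stimulating hormone, had 0, 0 and 2 counts in the Ivl:BRAFV600E tumours and 1, 2 and 5 in the Ivl:BRAFV600E-SOX2LSL tumours. Only SOX2LSL tumour 3 exceeded 3 counts. The ratio of the summed counts was 3.05 after scaling, with an exact 95% counting interval of 0.610 to 29.5 (edgeR adjusted p = 0.552). The single annotated exon block of Mc1r overlaps an exon of Gm38092 on the other strand by 653 bases.

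The ligand of KIT, Kitl (ENSMUSG00000019966, chromosome 10, 100015630 to 100100416, plus strand), had the highest level of the 10 per length of transcript and the smallest standard error of the difference (0.18). It was at 14.2, 10.9 and 14.6 CPM in the Ivl:BRAFV600E tumours and at 15.2, 16.6 and 13.2 CPM in the Ivl:BRAFV600E-SOX2LSL tumours. SOX2LSL tumour 3 lay below 2 of the Ivl:BRAFV600E tumours. This gave a log2 fold change of 0.18 with a 95% interval of -0.24 to 0.61 (edgeR adjusted p = 0.554), that is, folds of 0.848 to 1.52, the narrowest interval among the 10 genes.

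**Figure D2:**
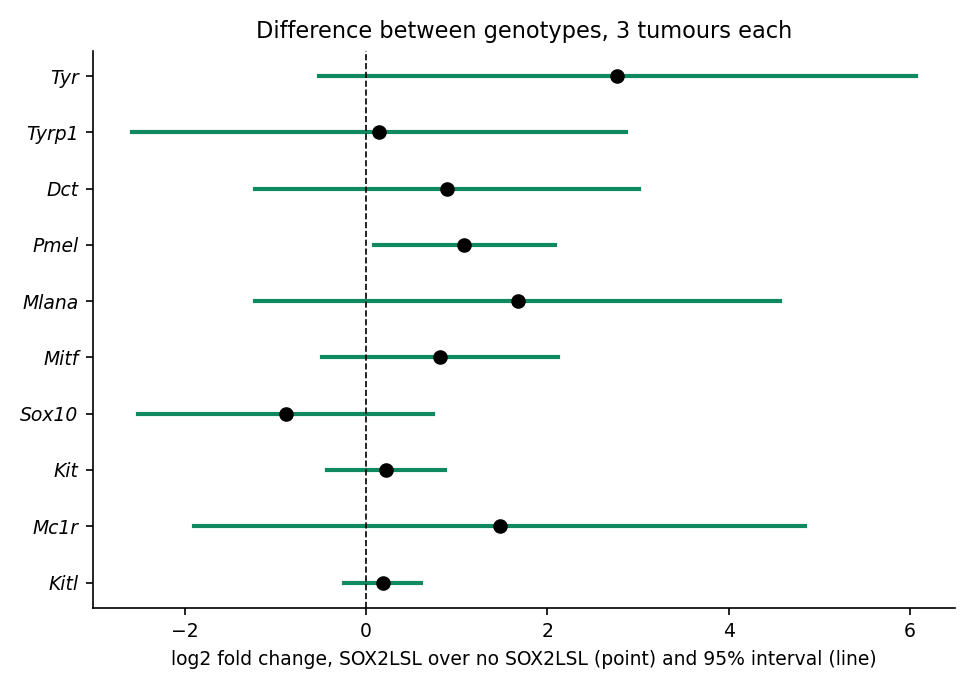
The log2 fold change of each gene between Ivl:BRAFV600E-SOX2LSL and Ivl:BRAFV600E tumours (points, 3 tumours each) with its 95% interval (lines). The intervals of 9 genes include 0, that of Pmel runs from 0.08 to 2.09, and those of Kit and Kitl are the narrowest.

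Divided by the length of the merged annotated exons, the levels could also be compared between genes, as CPM per kb. In Ivl:BRAFV600E tumours the order of the means was Kitl (2.24 ± 0.341), Kit (0.810 ± 0.288), Mitf (0.527 ± 0.392), Pmel (0.485 ± 0.265), Sox10 (0.367 ± 0.269), Tyrp1 (0.183 ± 0.204) and Dct (0.0974 ± 0.113), followed by Mlana, Mc1r and Tyr (SD, n = 3). Only Kitl lay above its next neighbour in that order in all tumours, and all other neighbours overlapped. In Ivl:BRAFV600E-SOX2LSL tumours the order was Kitl (2.54 ± 0.290), Pmel (1.03 ± 0.0828), Kit (0.942 ± 0.108), Mitf (0.926 ± 0.184), Tyrp1 (0.200 ± 0.143), Sox10 (0.199 ± 0.0146) and Dct (0.178 ± 0.0867), followed by Mlana, Tyr and Mc1r. Here Kitl stood above Pmel, Mitf above Tyrp1 and Mlana above Tyr without overlap, while Pmel, Kit and Mitf overlapped with each other. The level of Mlana, Tyr and Mc1r per length rests on 0 to 10 counts per tumour.

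**Figure D3:**
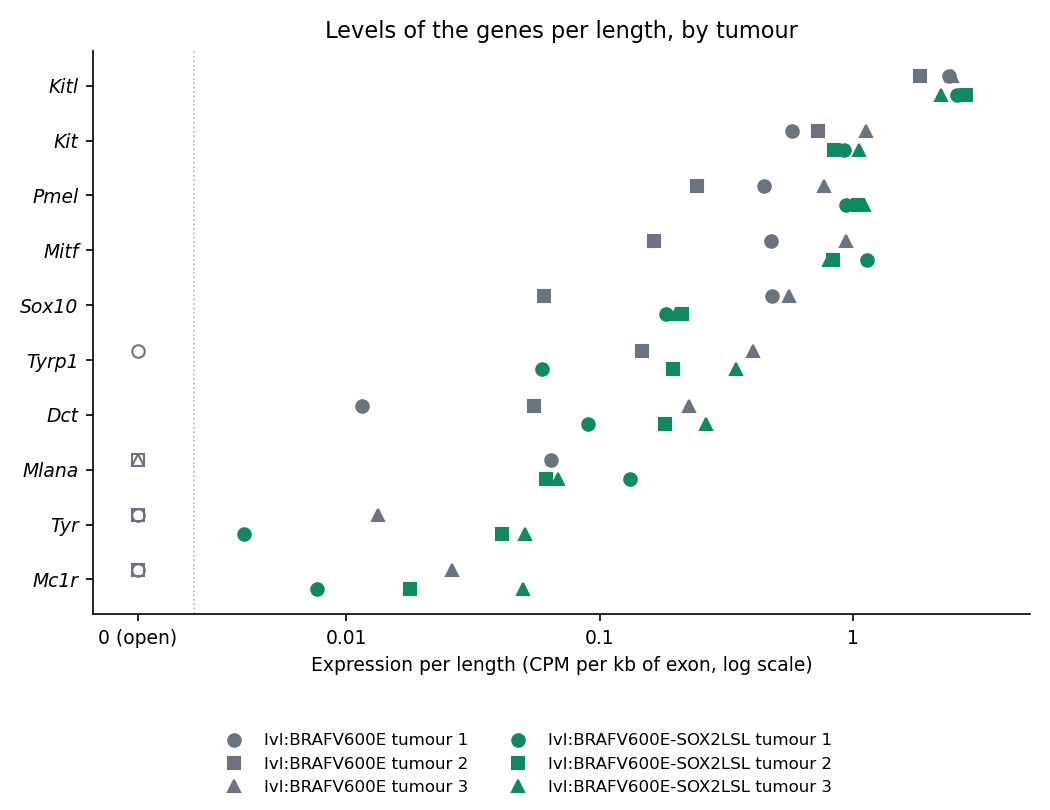
Levels per length (CPM per kb of exon, log scale, with 0 drawn as open symbols at the left) of the 10 genes in each tumour, ordered by the mean over all 6. Kitl lies to the right of every other gene in all tumours, and the open symbols show that Tyr, Mlana and Mc1r had no counts in 2 of the Ivl:BRAFV600E tumours and Tyrp1 in 1.

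Much of the spread within Ivl:BRAFV600E came from tumour 3, the only one of that group from a male, which was the highest of its group in 9 of 10 genes, while tumour 2 was the lowest, alone or tied at 0, in 7. Among the tumours from females, SOX2LSL tumour 3 lay above both Ivl:BRAFV600E tumours in 8 of 10 genes, the exceptions being Kitl and Sox10, where it lay between them. Among those from males, both SOX2LSL tumours lay above Ivl:BRAFV600E tumour 3 in 3 genes (Pmel, Mlana and Kitl) and below it in 5 (Dct, Tyrp1, Kit, Sox10 and Mc1r). Each of these comparisons has 1 tumour on one side, so that neither was tested. With sex as a covariate, edgeR again called 0 of the 10 genes.

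Mast cells carry both KIT and MITF, and the summed level of their markers was apart between the groups. The summed level of the 12 mast cell markers was 14.1, 19.2 and 15.1 CPM in the Ivl:BRAFV600E tumours and 46.1, 53.1 and 53.4 CPM in the Ivl:BRAFV600E-SOX2LSL tumours. The groups did not overlap in that sum or in 9 of the 12 markers, 11 of 12 estimates lay above 0, and the median log2 fold change was 2.77. Over all genes, 34.2% had groups that did not overlap (18.2% higher with SOX2LSL) and 52.8% of estimates lay above 0. The edgeR test called no marker (8 at an unadjusted p below 0.05, where 25.7% of all genes passed). The smallest adjusted p was 0.0623 for Cpa3, the mast cell carboxypeptidase (0.483 ± 0.497 against 4.44 ± 0.398 CPM, SD, n = 3 each), and the next 0.0807 for Fcer1a, a chain of the IgE receptor. DESeq2 called 5 markers, limma-voom 4 and edgeR with no filter 2, all higher with SOX2LSL. The adjusted p of Cpa3 was 2.15e-04, 0.0283 and 0.0271 in these 3 fits. In Ivl:BRAFV600E tumour 2, 5 of the 12 markers, among them Mcpt4 and Tpsab1, had 0 counts, in tumour 1 there were 2 such markers, and none was at 0 in a SOX2LSL tumour. The sum of Ivl:BRAFV600E tumour 2 came almost wholly from Hdc, Slc18a2 and Gata2, which other cells also express and which were singled out after their values were seen (19.0 of 19.2 CPM). The other 9 markers summed to 6.31, 0.185 and 4.89 CPM in the Ivl:BRAFV600E tumours and to 30.2, 30.6 and 26.7 CPM in the Ivl:BRAFV600E-SOX2LSL tumours. The markers set aside are also those whose groups overlapped, so that the separation of this second sum was fixed by the split. The part of mast cells in the levels of Kit and Mitf was not tested.

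The markers of macrophages, which also use MITF, summed to 61.4 to 118 CPM in Ivl:BRAFV600E and 164 to 517 CPM in Ivl:BRAFV600E-SOX2LSL tumours, without overlap. All 10 estimates lay above 0, where 52.8% of all genes did. The test called 1 marker, where 3.90% of all genes passed. That marker was Csf1r, the receptor for the macrophage growth factor CSF1 (log2 fold change 1.98, edgeR adjusted p = 0.0483). DESeq2 called 8 of these markers and limma-voom 4. The edgeR call of Csf1r was lost with sex as a covariate (0.0717) and when any tumour other than SOX2LSL tumour 1 was left out, with adjusted p-values of 0.0553 to 0.184. The part of macrophages in the level of Mitf was not tested.

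In the haired skin of the mouse most melanocytes sit in hair follicles, and the markers of the hair matrix had estimates below 0. Their summed level was 243, 17.8 and 262 CPM in Ivl:BRAFV600E tumours and 4.62, 27.7 and 109 CPM in Ivl:BRAFV600E-SOX2LSL tumours. Of the 11 tested estimates, 0 lay above 0, where 52.8% of all genes did, and 1 passed the test, where 3.90% of all genes did. That gene was Hoxc13, a regulator of hair keratins (-2.86, edgeR adjusted p = 0.0175), a call lost when any 1 of the Ivl:BRAFV600E tumours was left out (0.0573 to 0.0951). The 5 pigment cell genes summed to 1.16, 1.29 and 4.32 CPM in the Ivl:BRAFV600E tumours and to 3.02, 4.37 and 5.49 CPM in the SOX2LSL tumours. Of the 11 hair matrix markers, 8 had 0 counts in SOX2LSL tumour 1 and 3 in Ivl:BRAFV600E tumour 2. The part of hair follicles in the pigment genes was not tested.

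**Figure D4:**
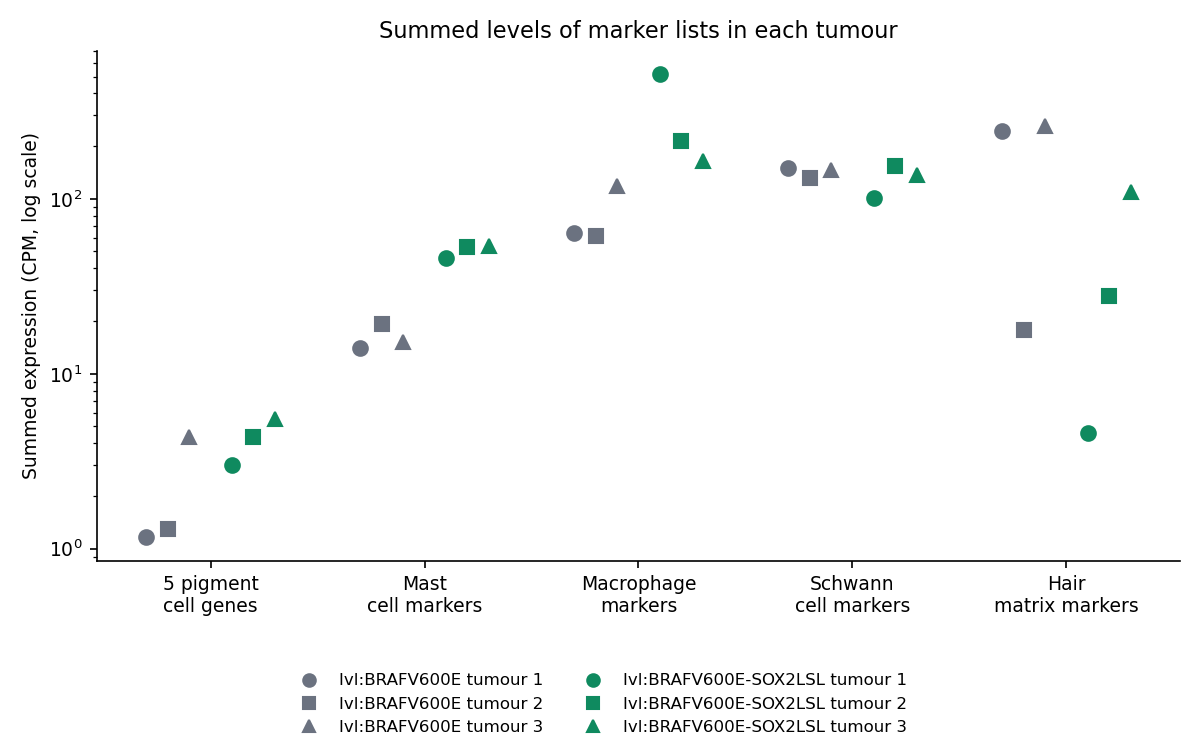
Summed expression (CPM, log scale) of the 5 pigment cell genes and of 4 marker lists in each tumour, grey for Ivl:BRAFV600E and green for Ivl:BRAFV600E-SOX2LSL. The groups are apart in the mast cell and macrophage lists and overlap in the pigment cell genes, the hair matrix markers and the full list of Schwann cell markers, in which L1cam and Mbp carry most of the sum.

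Other genes of the melanocyte pathway were taken from 3 lists of 64 genes, of which 58 were tested. Of these, 2 were higher in Ivl:BRAFV600E-SOX2LSL tumours, where 2.39% of all genes were, and 1 was lower, where 1.51% of all genes were, and the median log2 fold change was 0.16. Among the 14 transcription factors edgeR called none (3 at an unadjusted p below 0.05, where 25.7% of all genes passed), limma-voom none and DESeq2 1, Tfec (log2 fold change 2.07, adjusted p = 0.0128). The smallest edgeR adjusted p-values were those of Tfec, a relative of MITF that macrophages also express (0.342 ± 0.116 against 1.43 ± 0.828 CPM, adjusted p = 0.0732), and of Snai2, a zinc finger factor of the neural crest (20.7 ± 4.70 against 31.0 ± 5.95 CPM, adjusted p = 0.154).

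Of the 28 genes of melanosome formation and transport, 24 were tested, and the 4 others, Oca2, Slc45a2, Gpr143 and Tspan10, had at most 4 counts in any tumour. The edgeR test called 1 gene. Atp7a, the copper transporter that loads tyrosinase with its metal, fell from 188, 192 and 154 CPM in Ivl:BRAFV600E tumours to 58.7, 75.2 and 76.6 CPM in Ivl:BRAFV600E-SOX2LSL tumours. The groups did not overlap, and the log2 difference was -1.34 ± 0.16 (standard error), with an edgeR adjusted p of 0.0138. The call was lost without Ivl:BRAFV600E tumour 1 (adjusted p = 0.0928) or tumour 2 (0.0635), and the estimate stayed between -1.44 and -1.23 over all alternatives. Atp7a acts in many cell types. DESeq2 called 6 genes of this list, Atp7a, Myo5a, Mreg and Rab38 lower and Gpnmb and Trpm1 higher. Of these limma-voom called 4 (Atp7a, Myo5a, Mreg and Trpm1) and edgeR with no filter 2 (Atp7a and Myo5a). Myo5a, the motor that carries melanosomes along actin, was at 310, 366 and 288 CPM against 133, 211 and 163 CPM, just outside the edgeR threshold (adjusted p = 0.0506).

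Of the 22 ligands and receptors, 20 were tested, Pomc had at most 1 count in any tumour, and Asip was not matched by its symbol and not analysed here. Met, the receptor of hepatocyte growth factor, rose from 34.7, 25.3 and 31.0 CPM to 127, 66.0 and 68.7 CPM (a log2 difference of 1.52 ± 0.28, standard error, with an edgeR adjusted p of 0.0364). Ece1, which cleaves endothelin precursors into the active ligands, rose from 101, 90.4 and 131 CPM to 183, 182 and 194 CPM (a log2 difference of 0.80 ± 0.16, standard error, with an edgeR adjusted p of 0.0451). The groups of both genes did not overlap. The call of Ece1 was lost with upper-quartile scaling (0.0640). Both calls were lost with sex as a covariate (0.0987 for Met and 0.103 for Ece1) and when any tumour other than SOX2LSL tumour 1 was left out (0.0551 to 0.137 for Met and 0.0566 to 0.182 for Ece1). The endothelin receptor of melanocytes, Ednrb, was at 11.1, 24.6 and 8.55 CPM against 24.4, 17.3 and 9.82 CPM and did not pass the test (edgeR adjusted p = 0.799). Among other genes of this list, DESeq2 also called Ednra and Nrg1 higher and Atrn and Pcsk1 lower, while limma-voom and edgeR with no filter each called 3 (Met, Ece1 and Atrn). Both Met and Ece1 are expressed by epithelial and endothelial cells as well.

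**Figure D5:**
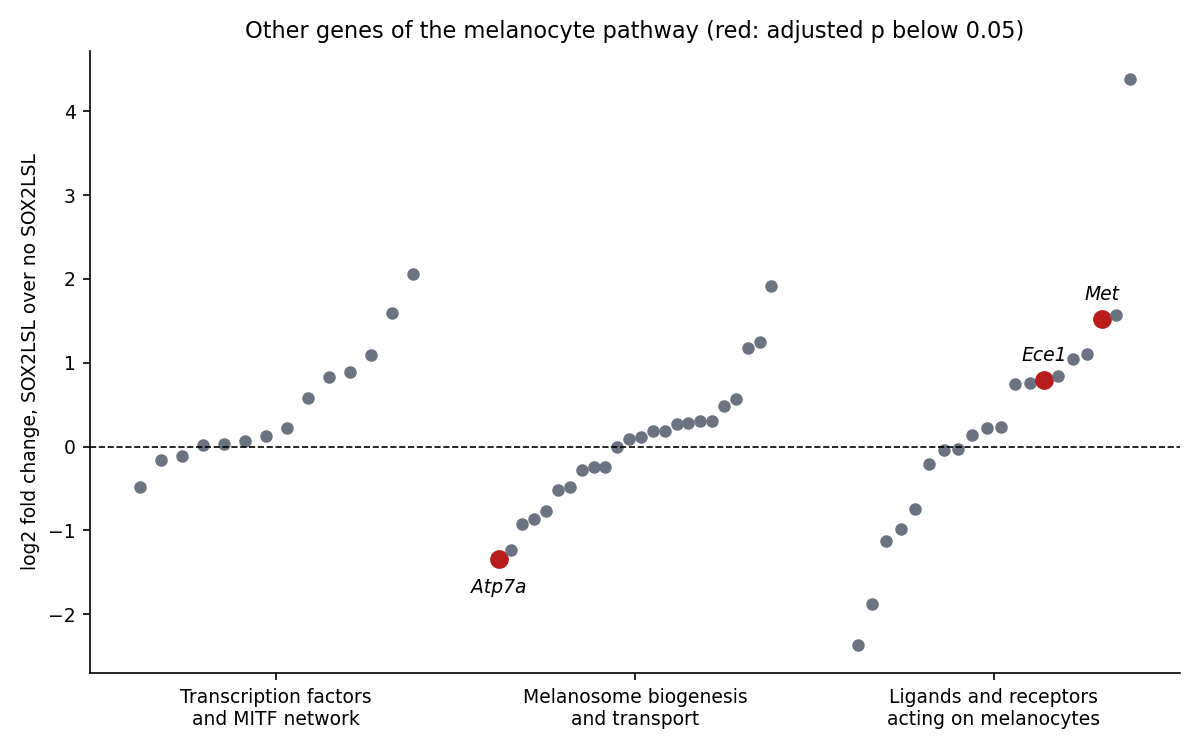
The log2 fold change between Ivl:BRAFV600E-SOX2LSL and Ivl:BRAFV600E tumours of the 58 tested genes of the 3 melanocyte lists, sorted within each list, with genes of adjusted p below 0.05 in red. Atp7a is the 1 red point below 0, Ece1 and Met are the red points above it, and the transcription factor list has no red point.

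The genes whose pattern over the 6 tumours was most like that of the 5 pigment cell genes were sought among the 14426 other genes with a mean of at least 1 CPM. Likeness was the root mean square difference between the centred log2 CPM of a gene and the mean centred log2 CPM of the 5 genes. The 8 nearest were Gm5416 (0.14), Pianp (0.18), Cxcr6 (0.20), Gm16675 (0.21), Klhdc8b (0.23), Rab44 (0.24), Lrrc4 (0.28) and Mmp25 (0.28), in log2 units. Each of these 8 was highest among the Ivl:BRAFV600E tumours in tumour 3 and highest overall in SOX2LSL tumour 3, and none passed the test between the genotypes (edgeR adjusted p 0.145 to 0.530). With 6 tumours that share the same scaling, such a list is a description only.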

How the data were processed

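Bulk tumour RNA was depleted of ribosomal RNA and sequenced in paired-end mode. Per the submitters' processing notes, reads were checked with FastQC 0.11.8, trimmed with Trim Galore, aligned to GRCm38 with HISAT2 2.1.0 and counted per gene with featureCounts (Subread 1.6.3). The authors deposited raw read counts per gene, without normalisation or pooling. The use of strand and of multimapping reads is not given in the sources used here. The columns are named by mouse, and 6 were placed in their group through the mouse list of the study, 3 per genotype. The remaining 1 column, which shares its prefix with the SOX2LSL columns but matched no listed mouse, was not used. The labels list 4 Ivl:BRAFV600E samples, of which 3 were analysed here.

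The filter kept the 24433 genes that reached 5 reads in any 1 tumour, library sizes were scaled by TMM, and genotype was tested with the quasi-likelihood test of edgeR 4.0.16 in R 4.3.3, adjusted by Benjamini-Hochberg over all genes at 0.05. The log2 CPM used a prior count of 2. Single-value tests were exact permutation tests in scipy 1.17.1. Alternatives were DESeq2 1.42.0, limma 3.58.1 (voom with sample weights), other scalings and filters, sex as a covariate, removal of Gm26917 (11.2% to 16.8% of counts) or of skeletal-muscle genes, other thresholds and each tumour left out in turn. The scripts were tested on simulated data.

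Positions are from GENCODE M21 (GRCm38) and promoters from RefSeq (GRCm38.p6). The 10 genes and all lists were chosen with earlier results of these data known. Named in the text are all 10 genes, from each pathway or marker list the genes that passed the test (at most 4 per direction, or, where none passed, the 2 of smallest p), and the 8 genes of nearest pattern. Genes outside that rule were named after their values were seen. These were Ednrb, Cdh19, Gfra3, L1cam, Mbp, Mcpt4, Tpsab1, Hdc, Slc18a2, Gata2, Krt8, Krt18, Krt19, Pitx1 and the untested genes. The same holds for genes that only other fits called or that lay near the edgeR threshold (Krt77, Myo5a, Mreg, Rab38, Gpnmb, Trpm1, Ednra, Nrg1, Atrn and Pcsk1).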

Additional observations from a re-analysis of the deposited data

How the results depend on the processing

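No paired analysis was possible because the columns are named by mouse and carry no replicate numbers. None of the 10 melanocyte genes was called under any of the 15 other fits at an adjusted p below 0.05, nor by the edgeR fit as reported at 0.10 or 0.01. Pmel was below 0.10 with DESeq2 (0.0908) and limma-voom (0.0773). However, DESeq2 gave no adjusted p for Tyr, Mlana and Mc1r, filterByExpr removed these 3 genes from the test, and leaving out 1 tumour removed Mlana and Mc1r from it once each. Their direction held under every alternative except for Tyrp1, which ranged from -0.50 to 1.497 when single tumours were left out, turning negative without Ivl:BRAFV600E tumour 1 (-0.47) and without Ivl:BRAFV600E-SOX2LSL tumour 3. The limma-voom estimates of Dct (2.17) and Tyrp1 (2.33) exceeded those of edgeR (0.89 and 0.14).

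The count of all genes called (954) depended on the fit and was 3653 with DESeq2, 2142 with limma-voom, 1759 with no filter and 228 with sex as a covariate. Leaving out single tumours gave 22 to 1575 genes (22, 50 and 179 without Ivl:BRAFV600E tumours 1, 2 and 3, and 1575, 202 and 412 without Ivl:BRAFV600E-SOX2LSL tumours 1, 2 and 3). The 3 melanocyte pathway genes called became 14 with DESeq2, 7 with limma-voom, 5 with no filter, 5 with filterByExpr and 1 with sex as a covariate, and 0 to 6 when single tumours were left out. With CPM by total counts in place of TMM, 4 of the 10 genes (Pmel, Mlana, Mitf and Kitl) had groups that did not overlap, in a setting in which 40.3% of all genes did so and every log2 fold change shifts by 0.35. The cause of these changes was not tested.

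Depth limits the statements on Tyr, Mlana and Mc1r, which had more than 3 counts in at most 2 of the 6 tumours. Dct and Tyrp1 had 3 counts or fewer in 1 tumour each. All comparisons rest on 3 tumours per genotype.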

Other observations

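The tumours differed between genotypes in other cell types and tissue features whose values stand beside the melanocyte genes. The lists below were chosen with earlier results of these data known, so that their counts are descriptions. Skeletal-muscle genes summed to 16.6 to 32.8 CPM in Ivl:BRAFV600E and 1014 to 4333 CPM in Ivl:BRAFV600E-SOX2LSL tumours. By edgeR, 29 of 37 tested genes were higher, where 2.39% of all genes were, and none was lower. Of the 37, 5 had 0 counts in every Ivl:BRAFV600E tumour and passed the filter only through SOX2LSL tumours. The muscle genes of smallest p were Actn2, Atp2a1, Myl1 and Mybpc1, which encode parts of the contractile and calcium machinery of muscle (edgeR adjusted p 0.00708 to 0.00926). Without Ivl:BRAFV600E tumour 1 all 4 calls were lost (0.0753 to 0.0816), those of Myl1 and Mybpc1 also without Ivl:BRAFV600E tumour 2 (0.0527 and 0.0573) and with limma-voom (0.0526 and 0.0657). Genes that mark the distal limb, such as Krt9, the keratin of footpad skin, and Hoxc10, summed to 74.9 to 462 CPM and 33.0 to 43.9 CPM. Of the 10 tested, 4 were lower (Hoxc10, Hoxc11, Hoxa13 and Krt9), where 1.51% of all genes were. In the Ivl:BRAFV600E-SOX2LSL tumours that sum was almost wholly Pitx1, a hindlimb factor, at 25.6, 29.8 and 31.4 against 43.7, 32.4 and 41.9 CPM (log2 fold change 0.44, edgeR adjusted p = 0.145), and the other 9 genes summed to 49.3, 432 and 412 against 0.224, 0.615 and 0.181 CPM. The calls of Hoxc10 and Hoxc11 held in all 15 other fits. That of Hoxa13 was lost with sex as a covariate (0.0661) and without any 1 of the Ivl:BRAFV600E tumours (0.0669 to 0.123), and that of Krt9 with limma-voom (0.351) and without Ivl:BRAFV600E tumour 2 or 3 or Ivl:BRAFV600E-SOX2LSL tumour 2 or 3 (0.0559 to 0.0695). Hoxc11 and Hoxa13 had 0 counts in all 3 Ivl:BRAFV600E-SOX2LSL tumours, against 444 to 591 and 16 to 35 counts in the Ivl:BRAFV600E tumours. Krt9 itself was at 13.6, 390 and 378 CPM in the Ivl:BRAFV600E tumours and at 0.0280, 0.0972 and 0.0361 CPM in the Ivl:BRAFV600E-SOX2LSL tumours. Markers of fibroblasts and endothelium summed to 842 to 5079 and 3987 to 8270 CPM, with 8 of 9 estimates above 0, where 52.8% of all genes were. None passed the edgeR test (3 at an unadjusted p below 0.05, where 25.7% of all genes passed). The smallest edgeR adjusted p-values were 0.0956 for the fibroblast gene Pdgfra (log2 fold change 1.48) and 0.0976 for the endothelial gene Kdr, the 1 estimate below 0 (-0.51), with groups that did not overlap. Both genes were called by DESeq2 (0.00987 and 0.0339) and limma-voom (0.0469 and 0.0426), and Pdgfra by edgeR with no filter (0.0486). Ivl:BRAFV600E tumour 2, the lowest for 7 of the 10 melanocyte genes, had the lowest sum. The part of these tissues in the melanocyte genes was not tested.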
